A study of Mus musculus with 8 samples.

Results

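Cfap genes encode cilia and flagella associated proteins, which build or sit on the axoneme, the microtubule core of motile cilia and of the sperm tail. They were read here in whole testes of mice at postnatal day 12 (P12). The genes were chosen by symbol, Cfap followed by digits only, and by a summed count of at least 80 reads over the 8 count tables. Of the 40840 genes in the tables, 31 had such a symbol and 29 reached that sum, and all 29 were among the 19104 genes in the differential expression test. Cfap47, whose difference between the genotypes was known when the genes were chosen, is described by its values, and its calls are given only to show how it came to be named. Just inside the threshold was Cfap100 with 109 reads, and just outside were Cfap58 with 31 and Cfap73 with 7. Axonemal genes that the tables list under an older symbol were not counted.

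The study compared 4 wild type testes with 4 Tra2b-cPEko testes, labelled A to D in each genotype and taken from independent mice on a C57BL/6J background. Tra2b encodes a splicing activator, and its poison exon is an exon whose inclusion stops the production of full-length protein. The mice called wild type were Tra2bPE fl/+ animals without Cre, so they carried 1 floxed poison exon. The Tra2b-cPEko mice were Tra2b fl/-;Vasa-Cre, with 1 poison exon already deleted in all cells and the floxed copy removed by Vasa-Cre in germ cells from before birth, so the somatic cells of the testis kept the floxed copy. In a whole testis, fewer cells of a type and less RNA per cell cannot be told apart. The methods of the study allow for slight differences in cell type mix between testes of not quite equal age, and no litter or batch was named.

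The axoneme of a motile cilium or flagellum is a ring of doublet microtubules around a central pair. Dynein arms on the doublets slide neighbouring doublets past each other, and radial spokes, the nexin-dynein links and the central apparatus control this sliding. Microtubule inner proteins line the doublets from inside, and cytoplasmic assembly factors fold the dyneins before transport into the cilium. In the testis many axonemal genes are switched on in meiotic germ cells, well before any tail is built.

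The promoter of a motile cilia gene often holds a site for the RFX transcription factors, whose half-site is spelled GTTGCCA. This motif alone was searched on both strands of the RefSeq promoters (GRCm38.p6, 250 bases before to 50 bases after each transcript start), and 23 of the 29 Cfap genes had an entry. It was found in 6 of these 23 genes (26.1%), compared with 1358 of 27025 genes in the table (5.02%). The 6 genes were Cfap20, Cfap44, Cfap74, Cfap161, Cfap298 and Cfap300, with 3 copies in Cfap161 and 2 in Cfap44. The windows of the 3 of these genes that the rule for named genes picked are shown as examples, 5′ to 3′ on the strand of the gene, with the half-site or its reverse complement in capitals.
Cfap20: gaatagtccctTGGCAACcaagttccgcg
Cfap298: actgttgccccTGGCAACagccacttccg
Cfap74: agcagccttccGTTGCCAtggagctgcgc
The half-site began at position -95 from the transcript start in Cfap20 and at -61 in Cfap298. For Cfap74, which has more than 1 annotated start, it began at -37 or 14. A match describes these letters and was not tested as a binding site. Levels are given as CPM (read counts scaled to library size with TMM factors). Rfx2, the RFX factor best known from male germ cells, was at 29.4, 33.2, 17.1 and 21.2 CPM in wild type A to D. It was at 20.8, 18.8, 23.6 and 23.7 CPM in Tra2b-cPEko A to D. In wild type, Rfx1 was at 41.8 to 46.8 CPM, Rfx3 at 25.1 to 26.9 CPM, and Rfx4 at 2.56, 2.84, 0.400 and 0.762 CPM in A to D. Whether any of these factors acts on the Cfap genes was not tested.

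The libraries held between 36757386 and 59101569 reads on genes and between 9896 and 16367 reads on the Cfap genes. Tra2b itself was at 158, 166, 156 and 176 CPM in wild type and at 200, 190, 192 and 209 CPM in Tra2b-cPEko testes, a log2 fold change of 0.27 ± 0.05 (SE, edgeR adjusted p = 0.0552, DESeq2 adjusted p = 0.000195), although the tables hold 1 count for the whole gene, with the poison exon in it. The summed CPM of 10 Sertoli cell markers ranged from 5762 to 6443, and that of 13 leptotene and zygotene markers from 1839 to 2461. The library Tra2b-cPEko C stood apart by genes of the duct epithelium, with Crisp1 at 107 CPM against at most 0.341 CPM in any other mouse, and the 10 genes of that list summed to 167 CPM there and to between 11.3 and 16.9 CPM elsewhere. Among multiciliated epithelial markers Sntn alone was at 0 in all 8 libraries, and 2 genes with Sntn included stayed under 0.1 CPM. Over the 8 libraries Foxj1 was at 2.59 to 4.35 CPM, Dnah9 at 1.58 to 1.89 CPM and Dnah11 at 2.42 to 3.21 CPM. Foxj1, Mcidas, Gmnc, Dnah9 and Dnah11 are also in the lists of ciliary transcription factors or dynein chains read below. The 11 genes together gave 32.9 to 36.8 CPM in wild type and 32.3 to 36.2 CPM in Tra2b-cPEko testes, with 32.3 CPM in Tra2b-cPEko C.

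A pair of patterns was seen among the 29 Cfap genes. Cfap47 was higher in every Tra2b-cPEko testis than in any wild type testis. Most of the others were highest in wild type A and B, while wild type C and D lay at or near the level of the Tra2b-cPEko testes. The genotypes overlapped for most of these genes, but not for Cfap300 and Cfap61. In Cfap57, Cfap43 and Cfap126 wild type C and D lay below every Tra2b-cPEko testis. The heat map of the 29 genes shows both.

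**Figure D1:**
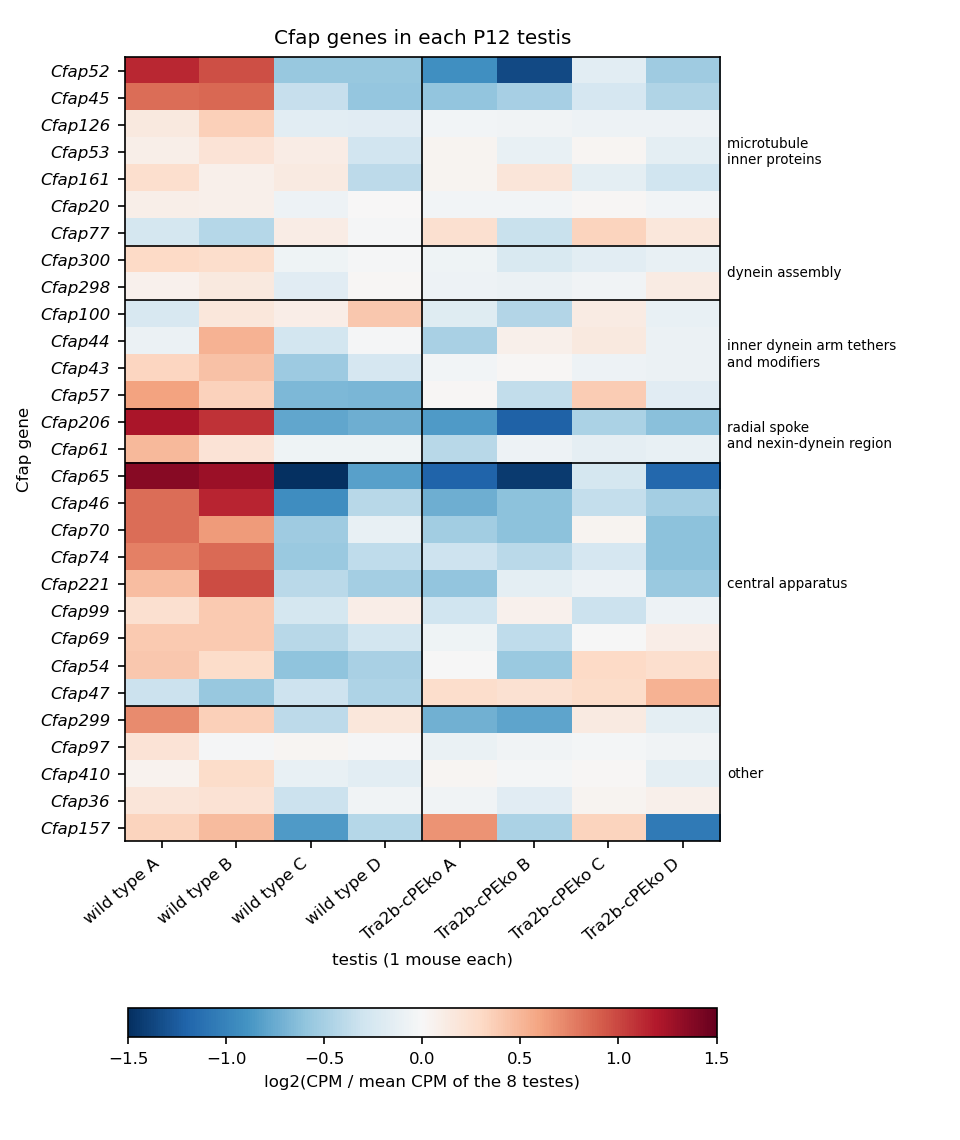
Level of each of the 29 Cfap genes (rows, grouped by role in the axoneme) in each of the 8 testes (columns), as log2 of CPM over the gene's mean CPM of the 8 testes. Wild type A and B are red for most genes, wild type C and D are mostly blue, and the Cfap47 row is red only in the 4 Tra2b-cPEko testes.

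Per kilobase of annotated exon, the mean levels in wild type testes spanned from 13.7 CPM per kb for Cfap20 down to 0.0508 for Cfap100. Cfap97 (10.4 ± 0.781 CPM per kb, SD), Cfap300 (6.61 ± 0.844) and Cfap298 (4.79 ± 0.425) followed Cfap20 (13.7 ± 0.697), each apart from its neighbour by more than their SDs. Cfap36 came next at 2.996 ± 0.490 and Cfap126 at 1.96 ± 0.350 CPM per kb. From there on neighbours in the order differed by less than their summed SDs, for example Cfap410 (1.67 ± 0.233) and Cfap65 (1.51 ± 1.202), except that Cfap221 (0.0733 ± 0.0362) lay below Cfap299 (0.161 ± 0.0486) by slightly more. Cfap47 ranked 15 of 29 in wild type testes with 0.667 ± 0.0557 CPM per kb, and its level in Tra2b-cPEko testes was 1.11 CPM per kb.

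Cfap47 is a protein of the central apparatus that is encoded on the X chromosome (GRCm39, chrX:78310165-78561191, minus strand), where no other annotated gene overlaps it. It was at 7.29, 6.15, 7.34 and 6.61 CPM in wild type A to D, and at 10.9, 10.7, 11.03 and 13.1 CPM in Tra2b-cPEko A to D. The genotypes did not overlap, and wild type A and B were no higher than wild type C and D. The means were 6.85 ± 0.572 and 11.4 ± 1.11 CPM (SD, n = 4 each), a 1.67-fold higher level in Tra2b-cPEko testes and a log2 fold change of 0.74 ± 0.09 (SE). It was the 1 Cfap gene called by edgeR at an adjusted p under 0.05, a threshold that 0.157% of all genes tested passed, and the 1 called by DESeq2, which called 2.79% of the genes it gave an adjusted p. These calls are no evidence beyond its values. Its value in Tra2b-cPEko C, the library with duct epithelium genes, lay between those of the other Tra2b-cPEko testes, and the log2 fold change without that library was 0.75. The edgeR call was lost without Tra2b-cPEko D, the testis with the highest level, where the log2 fold change was 0.67, and also with wild type A and B left out together (0.71). Mageb16, a neighbour of Cfap47 on the X chromosome, was at 16.5 ± 0.526 CPM in wild type and 20.7 ± 2.42 CPM in Tra2b-cPEko testes (log2 fold change 0.33 ± 0.08, edgeR adjusted p = 0.112, DESeq2 adjusted p = 0.0190).

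None of the other central apparatus genes passed the edgeR threshold. Cfap65, which is needed for a normal sperm tail, was at 21.8, 20.5, 3.01 and 4.83 CPM in wild type A to D and at 3.69, 3.13, 7.03 and 3.73 CPM in Tra2b-cPEko A to D. Wild type A and B stood far above the other 6 testes, and wild type C was the lowest of all 8. The fitted log2 fold change was -1.50 ± 0.74 (SE), with an edgeR adjusted p of 0.398.

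Cfap46 was at 7.81, 9.63, 2.29 and 3.27 CPM in wild type and at 2.63, 2.86, 3.42 and 3.08 CPM in Tra2b-cPEko testes. Cfap74 was at 15.5, 16.5, 6.23 and 7.05 CPM in wild type and at 7.38, 6.92, 7.67 and 5.96 CPM in Tra2b-cPEko testes. Both are components of the central apparatus, and in both the same pair of wild type testes was high, while wild type C and D fell within or beside the Tra2b-cPEko range. Cfap70 was at 3.96, 3.45, 1.54 and 2.05 CPM in wild type and at 1.54, 1.44, 2.29 and 1.44 CPM in Tra2b-cPEko testes, again with wild type A and B above the rest. The log2 fold changes of Cfap46, Cfap74 and Cfap70 were -0.93 ± 0.46, -0.69 ± 0.35 and -0.70 ± 0.30 (SE). Cfap69, the member of the group with the highest mean CPM over all 8 testes, was at 15.5, 15.5, 8.86 and 9.83 CPM in wild type and at 11.4, 9.10, 11.8 and 12.7 CPM in Tra2b-cPEko testes, so here all 4 Tra2b-cPEko testes lay inside the wild type range. Cfap54 was at 6.09, 5.58, 3.03 and 3.27 CPM in wild type and at 4.57, 3.13, 5.64 and 5.47 CPM in Tra2b-cPEko testes, with full overlap and a log2 fold change of 0.07. Over the 9 central apparatus genes the median log2 fold change was -0.55, with 7 below 0 and 2 above (Cfap47 and Cfap54), and 8 of the 9 had wild type A and B both above C and D, all but Cfap47.

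**Figure D2:**
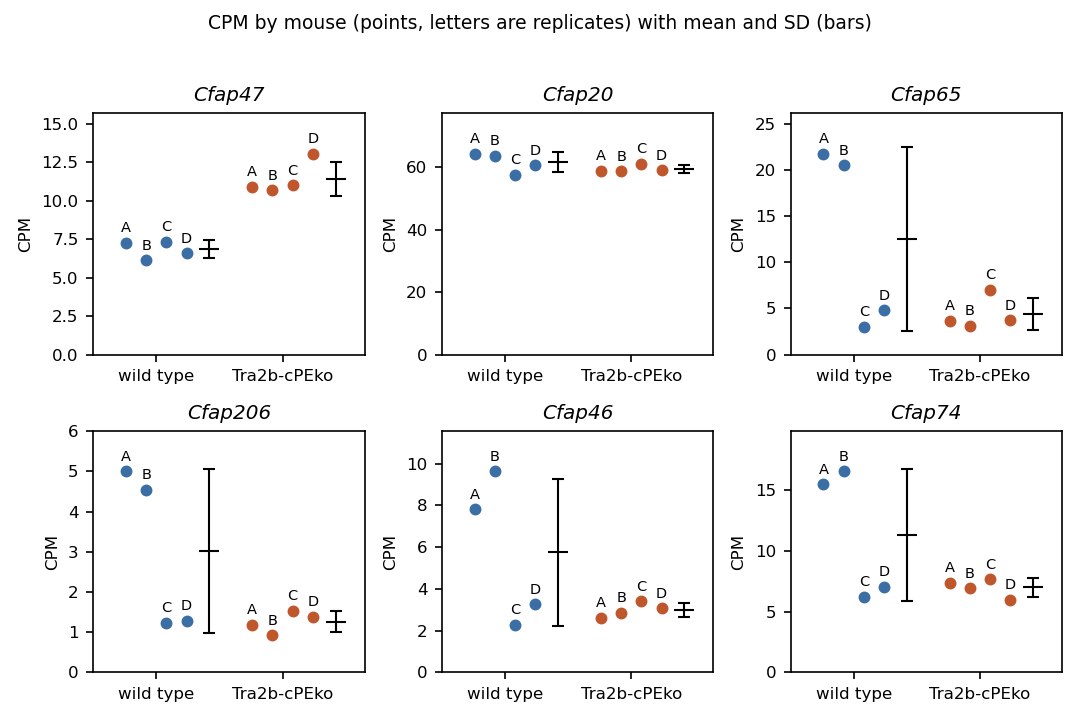
CPM (vertical axes, from 0) of 6 Cfap genes in each testis, with a point and its replicate letter for each of the 4 mice of a genotype and a bar for the mean with its SD. Cfap47 separates the genotypes, Cfap20 is near 60 CPM in all mice with a range of 57.6 to 64.4 CPM, and Cfap65, Cfap206, Cfap46 and Cfap74 are high in wild type A and B alone.

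The radial spoke and nexin-dynein region held 2 members. Cfap206, a protein at the base of a radial spoke, was at 5.0, 4.54, 1.24 and 1.29 CPM in wild type and at 1.18, 0.926, 1.54 and 1.39 CPM in Tra2b-cPEko testes, with a log2 fold change of -1.24 ± 0.53 (SE, edgeR adjusted p = 0.328). Only wild type A and B stood out. Cfap61, a calmodulin and spoke associated protein, was at 3.69, 3.03, 2.50 and 2.51 CPM in wild type and at 1.96, 2.48, 2.39 and 2.42 CPM in Tra2b-cPEko testes. Its genotypes did not overlap, but by a gap from 2.48 to 2.50 CPM, and the log2 fold change was -0.34 ± 0.15 (SE, edgeR adjusted p = 0.312).

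Among the tethers and modifiers of the inner dynein arms, Cfap57 was at 8.08, 6.74, 3.32 and 3.30 CPM in wild type and at 5.39, 4.11, 6.90 and 4.71 CPM in Tra2b-cPEko testes. All 4 Tra2b-cPEko values lay above wild type C and D, and 3 of the 4 below wild type A and B, so the fitted log2 fold change was -0.01. Cfap43, a tether protein, showed the same order with 5.93, 6.46, 3.24 and 3.98 CPM in wild type and 4.47 to 4.79 CPM in Tra2b-cPEko testes. Cfap44 ranged from 1.64 to 2.86 CPM in wild type and from 1.42 to 2.202 CPM in Tra2b-cPEko testes. Cfap100, the least expressed gene of the 29, had 8 to 23 reads per library, and its log2 fold change of -0.26 was about as large as its SE of 0.25.

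The 7 microtubule inner proteins had a median log2 fold change of -0.08. Cfap20, an inner junction protein, was at 64.4, 63.7, 57.6 and 60.7 CPM in wild type and at 59.0, 58.7, 61.2 and 59.0 CPM in Tra2b-cPEko testes, a log2 fold change of -0.05 ± 0.05 (SE). Cfap52 and Cfap45 showed the wild type split in full. Cfap52 was at 1.99, 1.77, 0.610 and 0.610 CPM in wild type against 0.354 to 0.812 CPM in Tra2b-cPEko testes, and Cfap45 at 1.72, 1.75, 0.757 and 0.644 CPM against 0.641 to 0.812 CPM. Cfap77 was the 1 gene of the 29 in which wild type C and D both exceeded A and B, with 1.09, 0.970, 1.41 and 1.29 CPM, and was at 1.54, 1.04, 1.646 and 1.47 CPM in Tra2b-cPEko testes (log2 fold change 0.26 ± 0.18, SE). Cfap126, Cfap161 and Cfap53 had log2 fold changes between -0.12 and -0.08.

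Both dynein assembly factors, which act in the cytoplasm, had wild type ratios of highest to lowest CPM of 1.24 (Cfap298) and 1.28 (Cfap300). Cfap298 was at 24.1, 25.6, 20.6 and 23.4 CPM in wild type and at 21.99, 21.8, 22.3 and 25.1 CPM in Tra2b-cPEko testes (log2 fold change -0.04 ± 0.07, SE). Cfap300 was at 24.4, 23.9, 19.1 and 19.7 CPM in wild type and at 19.0, 16.9, 17.9 and 18.4 CPM in Tra2b-cPEko testes. The highest Tra2b-cPEko value of Cfap300 lay just under the lowest wild type value, and the log2 fold change was -0.27 ± 0.09 (SE, edgeR adjusted p = 0.192). The 5 members with no place in these groups were Cfap36, Cfap97, Cfap157, Cfap299 and Cfap410, with log2 fold changes from -0.58 for Cfap299 to 0.11 for Cfap157. Cfap97 was at 54.6 to 63.7 CPM in wild type and at 51.8 to 54.3 CPM in Tra2b-cPEko testes, without overlap.

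Over the 29 genes, 25 had a log2 fold change below 0 and 4 above, where 50.3% of all genes tested were below 0, and the median was -0.13 against -0.00 for all genes tested. Cfap47 alone was higher without overlap, as were 4.36% of all genes tested. Cfap300, Cfap97 and Cfap61 were lower without overlap, as were 4.18% of all genes tested. At an unadjusted p under 0.05, 5 were lower (Cfap300, Cfap70, Cfap52, Cfap45 and Cfap61), where 7.07% of all genes tested were, and none of these passed after adjustment.

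The spread among the wild type mice was the wider one. The ratio of the highest to the lowest CPM among the 4 wild type testes had a median of 1.74 over the Cfap genes and 1.22 over all genes tested, and it reached 7.24 for Cfap65, 4.20 for Cfap46 and 4.03 for Cfap206. Among the 4 Tra2b-cPEko testes the medians were 1.31 and 1.17, and the highest ratio was 3.31, for Cfap157. The ratio was at least 2 for 12 Cfap genes in wild type testes and for 3 in Tra2b-cPEko testes, where 7.73% and 7.99% of all genes tested reached it, and it was larger in wild type for 26 of the 29, as it was for 62% of all genes tested. Wild type A and B both lay above C and D for 22 of the 29, compared with 23.8% of all genes tested.

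**Figure D3:**
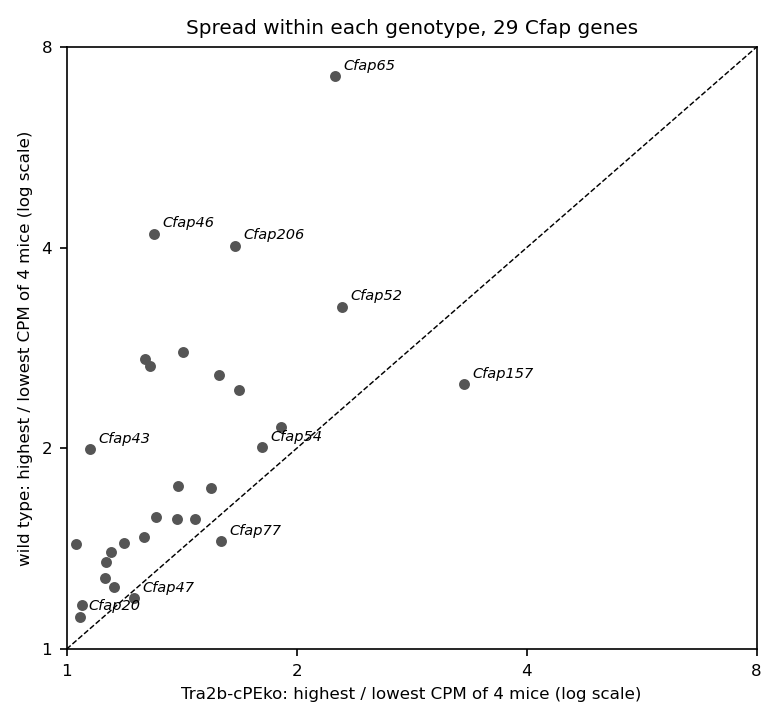
Ratio of the highest to the lowest CPM among the 4 mice of a genotype for each of the 29 Cfap genes (points), wild type on the vertical and Tra2b-cPEko on the horizontal axis, both on a log scale, with a dashed line where the ratios are equal. All but 3 points lie above the line, and Cfap65 lies highest at 7.24 in wild type against 2.25 in Tra2b-cPEko testes.

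By mouse, the CPM summed over the 29 genes was 363, 357, 261 and 277 in wild type A to D and 280, 270, 297 and 290 in Tra2b-cPEko A to D. Wild type A was the highest of the 8 testes for 13 genes and wild type B for 12, while wild type C was the lowest for 8. Markers of meiotic germ cells moved with these mice. Of 13 leptotene and zygotene markers, 12 had wild type A and B both above C and D, and the list summed to 2461, 2194, 1839 and 1917 CPM in wild type A to D and to between 1903 and 1977 CPM in Tra2b-cPEko testes. The sum of 9 markers of undifferentiated spermatogonia went the other way within wild type, at 231, 232, 276 and 274 CPM. It was 252, 256, 247 and 256 CPM in Tra2b-cPEko A to D. Zbtb16 gave much of the wild type difference, with 77.1, 76.7, 97.9 and 97.7 CPM. Gfra1, Ret, Lhx1 and Sall4 also had wild type C and D both above A and B. Id4 had A and B above C and D, and Nanos2, Nanos3 and Etv5 were not split by these pairs. The 11 genes of the pachytene list summed to 335, 351, 198 and 230 CPM in wild type A to D and to 247, 217, 266 and 261 CPM in Tra2b-cPEko A to D. Within that list Piwil1, a PIWI protein of pachytene spermatocytes, was at 43.6, 46.8, 10.2 and 14.4 CPM in wild type and at 11.1, 9.04, 14.3 and 10.9 CPM in Tra2b-cPEko testes. Ldhc, a germ cell lactate dehydrogenase, was at 28.7, 25.1, 3.14 and 4.76 CPM in wild type and at 6.37, 4.33, 9.86 and 6.35 CPM in Tra2b-cPEko testes. Of the 8 genes of the list that were tested, 5 had wild type A and B both above C and D, and Spag6, Ovol1 and Ccna1 did not, with Ccna1 at 0.317, 0.781, 0.989 and 0.593 CPM in wild type. None of the 11 was at 0 in all libraries. Mybl1, Spag6 and Tcfl5 are in this list and also in the lists of ciliary transcription factors or central apparatus partners. The part of germ cell stage in the Cfap levels was not tested.

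Wild type A and B were also left out together, an alternative added after the data were seen that leaves 2 wild type mice. They were the high mice for most of these genes, so leaving them out raises those log2 fold changes by construction. In this fit 9 of the 29 genes had a log2 fold change below 0 and 20 above, where 49.5% of all genes were below 0. The median was 0.07 against 0.00 for all genes, and neither comparison is a test. None of the 29 was lower at an unadjusted p under 0.05, where 4.24% of all genes were. At that threshold 4 were higher (Cfap47, Cfap57, Cfap43 and Cfap54), where 6.39% of all genes were. The log2 fold changes of Cfap65, Cfap46 and Cfap74 went from negative to 0.17, 0.10 and 0.08, that of Cfap206 became -0.00, and that of Cfap57 became 0.68 ± 0.19 (SE, edgeR adjusted p = 0.255). That of Cfap47 was 0.71 ± 0.11 (SE). This fit called 1 gene of all 19858 tested, which was not a Cfap gene.

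**Figure D4:**
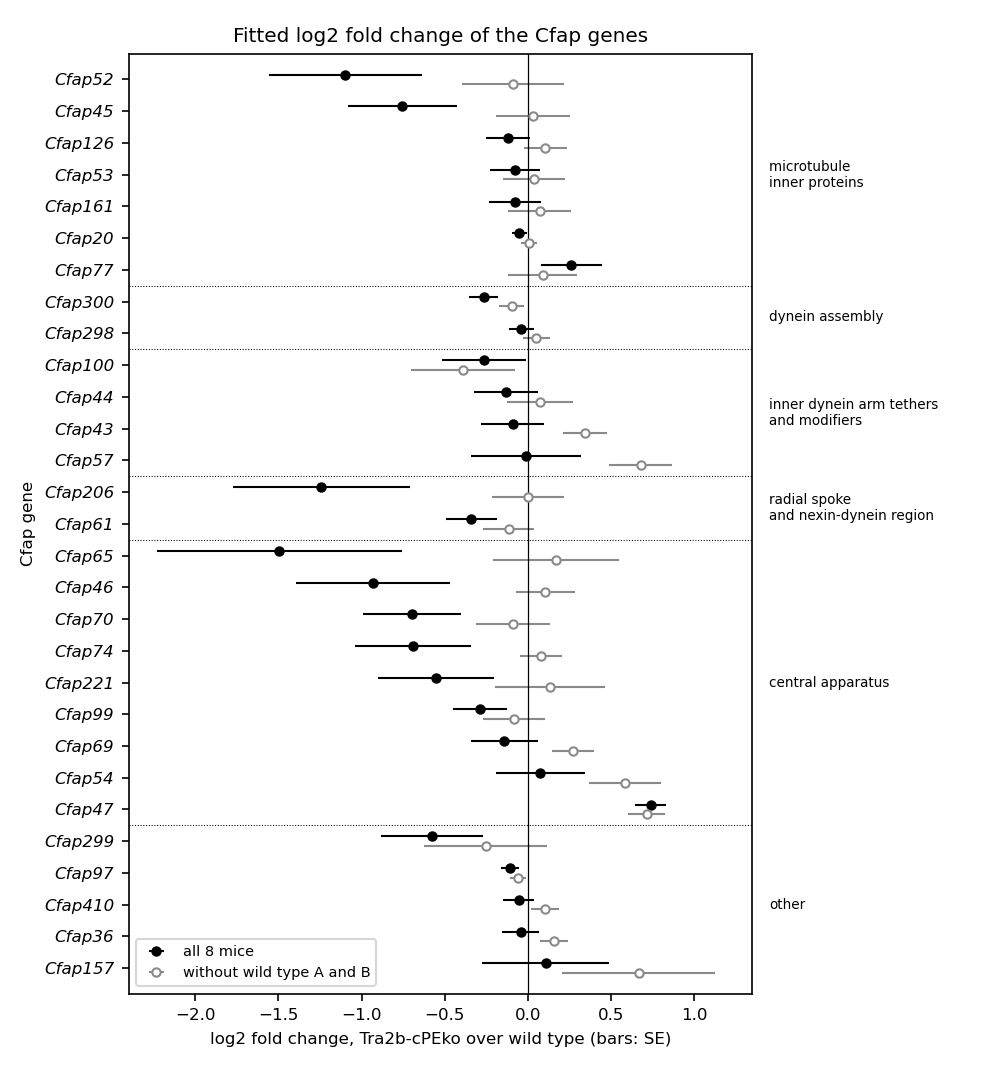
Fitted log2 fold change (horizontal axis, Tra2b-cPEko over wild type, bars show the SE) of the 29 Cfap genes by role, from all 8 mice (black) and without wild type A and B (open grey). Cfap65, Cfap206 and Cfap46 move from -1.50, -1.24 and -0.93 to near 0, and Cfap47 moves from 0.74 to 0.71. Leaving out the mice that were highest in Cfap65, Cfap206 and Cfap46 raises those values by construction.

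Of 105 other genes of the axoneme and its assembly that were tested, in 8 lists by function, 79 had wild type A and B both above C and D (75.2%, against the 23.8% of all genes tested). By edgeR none was called. At an unadjusted p under 0.05, 16 of the 105 were lower, where 7.07% of all genes tested were. At that threshold 3 of the 105 were higher, where 8.22% of all genes tested were. Both directions together made up 18.1% of the 105, against 15.3% of all genes tested. DESeq2 called 5 as lower and 1 as higher, where it called 2.79% of all genes. All 8 partners of the central apparatus had a log2 fold change below 0, with a median of -0.34. Among them Spag17, another central apparatus protein, was called by DESeq2, and was at 4.86, 4.19, 0.736 and 1.34 CPM in wild type and at 0.461, 0.327, 0.983 and 0.272 CPM in Tra2b-cPEko testes (log2 fold change -2.39 ± 0.74, SE, edgeR adjusted p = 0.226). Of 13 radial spoke and nexin-dynein genes 12 were below 0 (median -0.32), of 12 tektins and doublet inner proteins 9 (median -0.24), and of 10 dynein assembly and docking factors 9 (median -0.20). In these 3 lists DESeq2 called 1 gene, Tekt2, with a log2 fold change of -0.47. The lists were not found in full in the count tables. They held 15 of 23 listed radial spoke and nexin-dynein genes, 14 of 16 tektins and doublet inner proteins and 10 of 19 assembly and docking factors. Of the dynein chains 20 of 23 were found, and of the intraflagellar transport genes 26 of 31.

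Of 19 axonemal dynein chains 12 were below 0 and 7 above, with a median of -0.04. Dnah12, an inner arm heavy chain, was at 7.78, 6.41, 5.57 and 6.12 CPM in wild type and at 10.1, 7.84, 10.4 and 10.9 CPM in Tra2b-cPEko testes (log2 fold change 0.60 ± 0.12, SE, edgeR adjusted p = 0.0791, DESeq2 adjusted p = 0.00157). Every Tra2b-cPEko value of Dnah12 was above every wild type value, the nearest pair being 7.78 and 7.84 CPM, and unlike Cfap47 it had wild type A and B above C and D. Of 26 intraflagellar transport genes, which carry cargo along the growing axoneme, 17 were below 0 (median -0.05), and DESeq2 called Ift57 and Ift74 as lower. Of 9 sperm tail sheath and outer dense fibre genes 5 were below 0 (median -0.23), and DESeq2 called Odf4 (log2 fold change -2.67), which was at 2.65 and 3.17 CPM in wild type A and B and at most 0.491 CPM in the other 6 testes. The 8 ciliary transcription factors tested had a median of -0.04, and Foxj1, the regulator of motile cilia, was at 2.85 to 4.35 CPM in wild type and at 2.59 to 3.38 CPM in Tra2b-cPEko testes (log2 fold change -0.33 ± 0.15, SE, edgeR adjusted p = 0.331).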

How the data were processed

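Libraries were paired-end and stranded, from whole testes at 12 days of age. The authors deposited raw counts per gene symbol, 1 table a mouse, with 5 summary lines left out here. The submitters' notes name HISAT2 2.2.1, SAMtools 1.7.1, HTSeq 2.0.2 and GRCm39, and the methods also name Salmon. Whether strand was used in counting is not given in the sources used here, and 19 Cfap genes overlap a gene on the other strand only, 5 one on their own strand and 5 none.

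The fits used edgeR 4.0.16 under R 4.3.3, with TMM scaling, filterByExpr at a count of 10 and a total of 15, and the robust quasi-likelihood F-test on genotype alone, with Benjamini-Hochberg adjustment over 19104 genes and calls at an adjusted p under 0.05. CPM use TMM-scaled totals. Alternatives were DESeq2 1.42.0, limma-voom (limma 3.58.1), other factors and filters, a replicate block and fits without each mouse. The edgeR and DESeq2 fits were also run on simulated counts. These held no split among mice of a genotype, so that run says nothing about such a split. Exon lengths and positions come from GENCODE on GRCm39.

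Named by rule were Cfap47, any gene called, the highest of each role, the 5 largest and 5 smallest log2 fold changes at a mean of at least 1 CPM, and those nearest the threshold of 80 reads. Other genes with values were picked after these were seen. Genes and lists were chosen with earlier results of these data known.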

Additional observations from a re-analysis of the deposited data

Results flagged for a closer look

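In 58 groups of 4 mice (29 Cfap genes in 2 genotypes), 6 had 1 testis farther from the others than Dixon's critical value for 4 allows. About 2.9 would be met by chance if the groups were independent, which groups from the same mice are not. All 6 were in Tra2b-cPEko mice, and 3 of them in Tra2b-cPEko C, the library with duct epithelium genes. The ratio picks out 1 mouse against the rest, so a group split into pairs does not pass. In wild type, A and B both lay above C and D for 22 of the 29 genes, a split that works against passing. The 6 therefore do not show that Tra2b-cPEko testes were the less regular. In Tra2b-cPEko C, Cfap20 was at 61.2 CPM (others 58.7 to 59.0), Cfap65 at 7.03 CPM (others 3.13 to 3.73) and Cfap70 at 2.29 CPM (others 1.44 to 1.54). In Tra2b-cPEko D, Cfap47 was at 13.1 CPM (others 10.7 to 11.03) and Cfap298 at 25.1 CPM (others 21.8 to 22.3). In Tra2b-cPEko A, Cfap61 was at 1.96 CPM (others 2.39 to 2.48).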

How the results depend on the processing

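The log2 fold change of Cfap47 stayed between 0.67 and 0.77 in all alternatives tried. Those of Cfap61, Cfap70, Cfap77 and Cfap206 kept their sign in all of them but not their size. On all 8 mice they were -0.34, -0.70, 0.26 and -1.24, and without wild type A and B they were -0.11, -0.091, 0.089 and -0.00063. That of Cfap100 also kept its sign, except under the filter at a mean of 50 reads, which leaves it out. The number of Cfap genes called was 1 in every alternative on all 8 mice and by edgeR 0 to 1 with 1 mouse left out (0 without Tra2b-cPEko D). The number called by DESeq2 was 1 to 7 with 1 mouse left out. It was 7 without wild type C, where Cfap65, Cfap206, Cfap46, Cfap70, Cfap52 and Cfap300 joined Cfap47 and 5.69% of all genes were called, and 2 without wild type D. The number without overlap was 4, 1 with upper-quartile factors, 3 under the filter at a mean of 50 reads, 3 to 6 with 1 mouse left out and 6 without wild type A and B. Over all genes tested, 4.36% were higher and 4.18% lower without overlap on all 8 mice. With 1 mouse left out these shares were 5.07% to 8.47% and 5.2% to 8.46%. Without wild type A and B they were 10.7% and 9.64%, so larger counts go with fewer mice. The median log2 fold change ranged from -0.25 to -0.06 with 1 mouse left out. Values near 0 changed sign. Cfap57 was at 0.0086 with upper-quartile factors, 0.13 with limma-voom and -0.19 to 0.25 with 1 mouse left out, Cfap298 at -0.097 to 0.0065 and Cfap54 at -0.075 to 0.25 with 1 mouse left out. With wild type A and B left out together, chosen after seeing the data, edgeR called 0 (4 at an unadjusted p under 0.05 and 1 by DESeq2), the median was 0.071, and Cfap20, Cfap298, Cfap69, Cfap57, Cfap65, Cfap46 and Cfap74 turned to 0.0096, 0.051, 0.27, 0.68, 0.17, 0.10 and 0.076. Upward turns were built in where wild type A and B were the highest wild type mice, and the cause of their level was not tested.

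Same-lettered mice did not deviate together (correlations of 0.0141, -0.166, -0.0178 and 0.202 for A to D). Low correlations cannot exclude a shared litter or batch, and the labels do not say whether the letters mark one. With the letter as a replicate block, edgeR called 1 Cfap gene, the median was -0.11, Cfap47 was at 0.74 and Cfap57 at 0.056. Genes under 1 CPM rest on few reads, so differences there were not detectable unless large.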

Other observations

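Of the 708 genes of chromosome X that were tested, the median log2 fold change was 0.02. Of these edgeR called 4 (Cfap47, Gm5934, Magea14 and Scml1), or 0.565% against 0.157% of all genes tested. In Tra2b-cPEko testes 36 were higher without overlap (5.08%, against 4.36% of all genes tested). Both counts include Cfap47, whose difference was known when it was named. Tra2a, the paralog of Tra2b, was at 111 to 144 CPM in wild type and at 65.1 to 73.2 CPM in Tra2b-cPEko testes (log2 fold change -0.89 ± 0.08, SE, edgeR adjusted p = 0.00231). Unlike most Cfap genes, it separated the genotypes in all 8 mice.

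Sohlh1, a transcription factor of differentiating spermatogonia, was the single gene of the 12 marker lists that edgeR called, with 43.9, 49.0, 50.7 and 46.1 CPM in wild type and 38.1, 38.1, 35.9 and 37.3 CPM in Tra2b-cPEko testes (log2 fold change -0.34 ± 0.05, SE, edgeR adjusted p = 0.0341). DESeq2, which called 2.79% of the genes it gave an adjusted p, called Sohlh1 and Stag3 as lower and Lhcgr and Csf1r as higher. All 6 macrophage markers, Csf1r among them, had a log2 fold change above 0. Of the 6, 4 were higher at an unadjusted p under 0.05 by edgeR, where 8.22% of all genes tested were. The macrophage list summed to 103.0 to 123.7 CPM in wild type and to 124.3 to 151.5 CPM in Tra2b-cPEko testes. The round spermatid list summed to 7.49, 7.76, 5.22 and 5.47 CPM in wild type and to 5.34 to 6.74 CPM in Tra2b-cPEko testes.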
